A study of Drosophila melanogaster with 3 samples.

Results

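MicroRNA (miRNA) genes and the genes that hold them were examined in a chromatin immunoprecipitation sequencing (ChIP-seq) experiment on CG8089 in Drosophila melanogaster embryos. The annotation (Ensembl release 115 on the BDGP6 assembly, called dm6 in the peak lists) named 262 genes with a symbol starting with mir-, among them mir-let7 (let-7) and mir-ban (bantam), of 17683 genes on the major chromosome arms. No further gene was named exactly let-7 or ban. A host was any other gene on the same strand whose span contained the miRNA gene. Of the 262, 182 lay inside a host, 78 had none, and 2 lay on an unplaced ribosomal DNA scaffold that no peak list covered, so 260 could be examined. The 182 hosted genes had 165 distinct hosts, 128 protein-coding and 37 noncoding. Of the hosted genes, 136 had a protein-coding host and 46 a noncoding host only. Of the 136, 97 were intronic, and 43 of the 46 overlapped an exon of their noncoding host.

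The embryos were whole, aged 0 to 24 hours and of both sexes, from the transgenic strain CG8089-GFP, which carries CG8089 with green fluorescent protein at its C-terminal end. The precipitation used an antibody against GFP. There was 1 group of 3 biological replicates, numbered 2, 3 and 4, with no untagged or treated group, so the lists show where the tagged protein was found and not what it does there. Whole embryos mix all cell types and ages within the collection, and a peak cannot be assigned to a tissue. The sources used here do not give the promoter that drives the fusion. Control libraries were not analysed here.

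MiRNAs are cut from hairpins in longer primary transcripts by Drosha with its partner Pasha, then by Dicer-1 in the cytoplasm, and are loaded onto Argonaute-1, where bases 2 to 8 (the seed) pair with target messenger RNAs. An intronic miRNA is usually made from its host's own transcript, so the promoter that matters for it can be the host's and can lie far from the hairpin. Other miRNAs have long noncoding primary transcripts of their own, and mirtrons are made from very short introns by splicing in place of Drosha. In the fly embryo, miRNAs are known for the clearance of maternal messenger RNAs, the control of cell death and growth, and Hox gene regulation.

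Mature forms are shown for miRNAs whose own or host start carried a strong peak, or whose host locus is described in detail. They let the seeds be compared. The first 6 fall into pairs that share a seed, and each of the other 4 has a seed found in 1 miRNA gene only. They were read from the RefSeq annotation and genome of Release 6, and the seed is in capitals.
mir-279-3p: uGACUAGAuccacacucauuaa
mir-996-3p: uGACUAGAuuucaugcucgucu
mir-2a-1-3p: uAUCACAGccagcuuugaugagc
mir-2b-1-3p: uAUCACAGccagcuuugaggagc
mir-92a-3p: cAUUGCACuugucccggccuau
mir-92b-3p: aAUUGCACuagucccggccugc
mir-282-5p: uAGCCUCUacuaggcuuugucugu
mir-33-5p: gUGCAUUGuagucgcauuguc
mir-ban-3p: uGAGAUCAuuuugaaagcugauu
mir-9378-5p: aGUGGAGUgagaccucgaguucgg
Members of 1 seed can share a host and its peak, so the counts that follow are of genes and not of separate peaks, and 25.8% of all hosted miRNA genes had a bound host start. The seed GACUAGA of mir-279 and mir-996 occurred in 3 miRNA genes, of which these 2 had a bound host start and mir-286 did not. Their 3p forms differed at 12 of 22 positions, all outside the seed. AUCACAG was the seed of 14 genes, and 5 of them had a bound host start: mir-2a-1, mir-2a-2 and mir-2b-2 in spi, mir-2b-1 in Btk and mir-308 in RpS23. The 3p forms of mir-2a-1 and mir-2a-2 were identical, as were those of mir-2b-1 and mir-2b-2. The a and b forms differed by U19G, counted from 1 at the 5′ end with the mir-2a base first. AUUGCAC was shared by 6 genes. Of these, mir-92a and mir-92b had a bound host start, which for mir-92a lay downstream of its hairpin. Mir-310, mir-311, mir-312 and mir-313 had no host, so a bound host start was not possible for them.

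Short sequence motifs were looked up in windows from 100 bases before to 100 after each summit, the position of the highest signal in a peak. The windows below show the strongest host start (lncRNA:CR31044), a bound protein-coding host (Btk), the bantam primary transcript, and the gene starts of mir-9378 and mir-4962. They are on the strand of the miRNA and outside annotated UTRs. Capitals mark ACACTG or GAGAG or their reverse complements, and a window without capitals holds neither.
lncRNA:CR31044 (chr3R:29214349-29214549, plus strand): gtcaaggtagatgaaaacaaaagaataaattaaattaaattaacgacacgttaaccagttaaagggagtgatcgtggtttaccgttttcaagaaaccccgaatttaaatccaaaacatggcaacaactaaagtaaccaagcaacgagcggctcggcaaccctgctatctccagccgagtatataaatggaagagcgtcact
Btk (chr2L:8277732-8277932, minus strand): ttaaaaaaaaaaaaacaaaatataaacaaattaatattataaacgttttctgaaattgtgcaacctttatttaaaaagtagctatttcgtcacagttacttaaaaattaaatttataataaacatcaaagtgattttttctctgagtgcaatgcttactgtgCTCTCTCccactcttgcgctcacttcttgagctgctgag
lncRNA:CR43334 (chr3L:628373-628573, plus strand): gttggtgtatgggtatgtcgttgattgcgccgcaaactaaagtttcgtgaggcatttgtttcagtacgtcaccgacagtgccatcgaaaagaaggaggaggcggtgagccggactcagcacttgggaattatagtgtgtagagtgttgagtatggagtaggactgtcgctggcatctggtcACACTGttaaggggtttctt
mir-9378 (chr2L:10751991-10752191, minus strand): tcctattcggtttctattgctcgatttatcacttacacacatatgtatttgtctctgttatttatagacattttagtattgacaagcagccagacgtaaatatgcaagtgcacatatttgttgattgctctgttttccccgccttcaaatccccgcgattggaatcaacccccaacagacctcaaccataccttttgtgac
mir-4962 (chrX:3777299-3777499, plus strand): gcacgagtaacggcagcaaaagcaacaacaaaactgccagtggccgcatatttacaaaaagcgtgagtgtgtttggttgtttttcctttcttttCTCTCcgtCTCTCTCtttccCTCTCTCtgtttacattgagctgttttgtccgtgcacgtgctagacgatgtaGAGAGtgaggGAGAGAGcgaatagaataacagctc
The mir-4962 window covers most of the hairpin itself, and its 8 GAGAG or CTCTC matches, some of them overlapping, all lie in the hairpin. ACACTG or its reverse complement CAGTGT was in 9 of 44 windows at host starts (20.5%) and in 1 of 8 at miRNA gene starts (12.5%), beside 20.9% of all 3233 reproducible peaks. GAGAG or CTCTC was in 8 of the 44 (18.2%) and 3 of the 8 (37.5%), beside 26.2% of all. Among the 1701 reproducible peaks within 500 bp of any TSS the shares were 21.8% and 23.8%. With so few windows, no departure from the other peaks is read from these counts. Both motifs were chosen because earlier results on these peaks had named them, and a match of letters is not evidence of a bound site. The median GC content of the host start windows was 39.6%, beside 37.3% for all reproducible peaks.

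At their own starts, miRNA genes seldom carried a peak. A start was counted as bound when a summit of the authors' reproducible list lay within 500 bp. That list holds the 3233 strongest entries of the 30000 called on the pooled replicates, with signals from 115 to 4668 and a median of 175. The signal is the authors' measure of peak strength on a scale the sources used here do not give, and it is used only to rank peaks within a list, with rank 1 the strongest. Read depth is unknown. Of the 78 miRNA genes without a host, 1 was bound (1.28%), and of the 182 hosted genes 7 were (3.85%). Over all 17683 genes the share was 11.2%. The start of a miRNA gene is that of its hairpin, which is cut from a longer primary transcript, and not the start of that transcript. The shares thus set unlike kinds of start side by side. Where the promoters of the unhosted genes lie, and whether they were bound, was not tested.

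In each replicate, too, miRNA gene starts, taken at the hairpin, lay below all gene starts. Among the 3233 strongest peaks of a replicate, 1, 4 and 2 of the 78 genes without a host were bound in replicates 2, 3 and 4, a mean of 2.99% ± 1.96 (SD, n = 3). For the hosted genes the counts were 3, 9 and 5 of 182, a mean of 3.11% ± 1.68 (SD, n = 3). The corresponding shares of all genes were 11.5%, 10.5% and 10.6%, above the miRNA genes of both classes in all 3 replicates. The hosted and unhosted genes overlapped each other in these shares. When 1 replicate was left out, by keeping the reproducible peaks matched in the strongest peaks of both others, the hosted count fell from 7 to 2 whichever replicate was dropped, and the share of all gene starts fell to between 6.62% and 7.83%. As there was 1 group, no test between conditions was possible, and neighbouring genes of a cluster can share a peak, so these shares are given as descriptions.

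The longer lists likewise placed miRNA gene starts, again taken at the hairpin, below all gene starts. The pooled list placed a summit at 18 of 78 unhosted starts (23.1%) and at 55 of 182 hosted starts (30.2%), beside 44.7% of all gene starts. In the whole replicate lists of 30000 entries, the unhosted genes were bound in 21.8% ± 2.56 and the hosted in 31.0% ± 4.58 (SD, n = 3), beside 35.0%, 47.4% and 41.4% of all gene starts in replicates 2, 3 and 4.

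Host starts were bound more often than the hairpins inside them. The host had a reproducible summit at a transcription start site (TSS), again within 500 bp, for 47 of 182 hosted miRNA genes (25.8%), and 42 of 165 distinct hosts were bound (25.5%). The share was 14.6% over all 13945 protein-coding genes and 12.6% over all genes. Protein-coding hosts were bound in 35 of 128 cases (27.3%). Noncoding hosts were bound in 7 of 37 (18.9%), beside 5.87% of all noncoding RNA genes other than miRNA genes. In the strongest peaks of each replicate 5 of the 37 were bound (13.5%). The noncoding hosts had a median span of 6.44 kb, against 0.701 kb for noncoding RNA genes that host no miRNA. The part of length in this gap was not tested. In the strongest peaks of replicates 2, 3 and 4, 31, 45 and 39 of the 165 hosts were bound, a mean of 23.2% ± 4.26 (SD, n = 3). Protein-coding genes stood at 14.9%, 13.7% and 14.0% in the same lists, so the hosts lay above them in each replicate. In the pooled list 126 of 165 hosts were bound (76.4%), beside 51.7% of protein-coding genes, and in the whole replicate lists 52.7%, 78.8% and 65.5%, beside 41.3%, 54.3% and 48.6%.

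**Figure D1:**
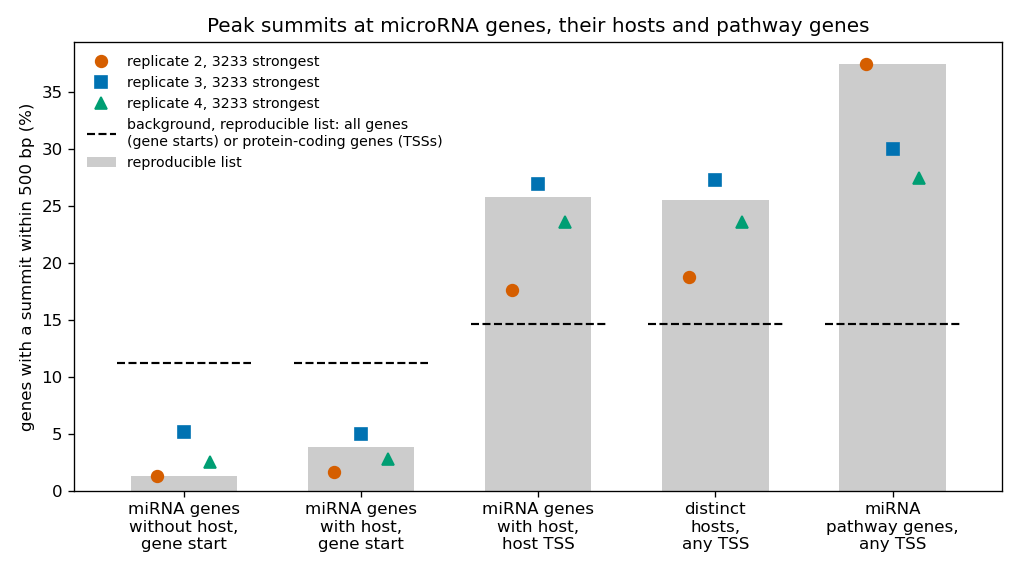
Share of genes with a summit within 500 bp, in percent, for 5 groups. Bars are the reproducible list, points the 3233 strongest peaks per replicate, and dashed lines the share of all genes (for gene starts) or of protein-coding genes (for TSSs) in the reproducible list. The points for miRNA gene starts, which are hairpin starts, lie below their line and those for hosts and pathway genes lie above theirs.

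Hosts have more TSSs than most genes, and each TSS adds a window in which a summit can fall. The hosts were therefore set beside genes with a like number. Among protein-coding genes with 1 TSS, 9 of 56 hosts (16.1%) and 10.6% of genes that host no miRNA were bound. With 2 to 3 TSSs the shares were 32.7% (17 of 52) and 23.2%. With 4 or more they were 45.0% (9 of 20) and 40.7%. The gap of 27.3% against 14.5% over all classes was thus smaller within each class. Hosts were also longer, with a median span of 14.1 kb against 2.15 kb, and the part of length in the remaining gap was not tested.

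**Figure D2:**
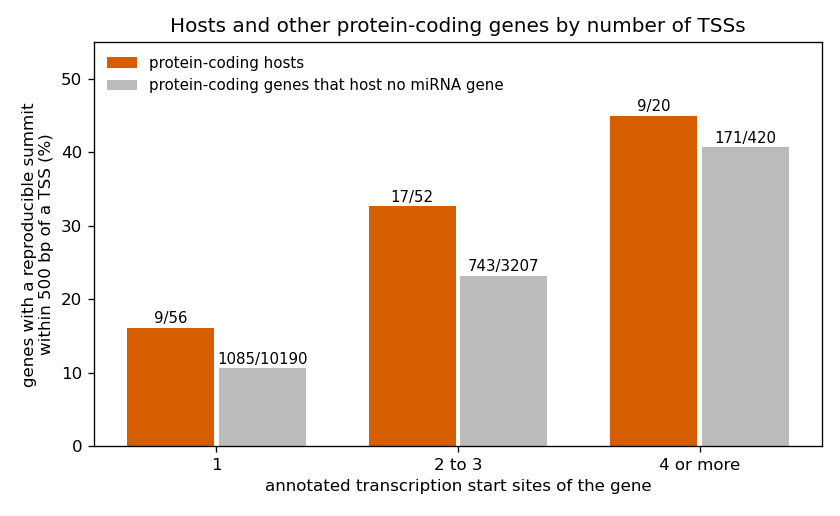
Share of protein-coding genes with a reproducible summit within 500 bp of a TSS, in percent, by the number of annotated TSSs of the gene. Bars are hosts of miRNA genes and genes that host none, with bound and total genes above each bar; the share rises from 16.1% to 45.0% among the hosts and from 10.6% to 40.7% among the others.

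Over all hosts together, the host TSS was bound about as often for intronic miRNA genes as for those overlapping an exon. It was bound for 26 of 100 intronic miRNA genes (26%) and for 21 of 82 that overlapped an exon (25.6%). Of the 34 in introns of 150 bp or less, the length class of mirtrons, 7 had a bound host TSS (20.6%). The 34 include some genes, such as mir-2500, that also overlap a host exon and are not among the 100. Of the 69 intronic genes in longer introns, 20 had one (29.0%). The kind of host was not held equal in these shares. The host TSS was bound for 40 of 136 genes with a protein-coding host (29.4%) and for 7 of 46 with a noncoding host only (15.2%). The 40 include mir-281-1 and mir-281-2, bound only at their noncoding host asRNA:CR46194. With TSSs of protein-coding hosts alone, 38 of the 136 were bound (27.9%). By arm, the share of hosted genes with a bound host TSS ran from 22.9% to 28.1% over the 5 arms with hosted members. The 47 miRNA genes corresponded to 39 clusters, a cluster being genes of 1 strand with neighbouring starts within 10000 bp, and to 44 summits. Clustered genes can share a host and its summit, and some hosts, such as spi and PAPLA1, had more than 1 summit.

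When only the most upstream TSS of each host was allowed, 28 of the 47 genes remained bound. That is 15.4% of the 182 hosted genes. Of the 165 distinct hosts 17.0% were then bound, beside 11.2% of all genes at the gene start. The same share for protein-coding genes alone was not computed. Left-out replicates gave 31, 31 and 26 genes without replicates 2, 3 and 4, again in shorter lists that placed 9.08%, 10.4% and 8.83% of protein-coding genes at a summit, and 28, 30 and 25 distinct hosts.

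A bound TSS lay upstream of the hairpin for 45 of the 47. The nearest such TSS was 160 bp to 159044 bp from the hairpin, with a median of 4277 bp, and it was within 1500 bp for 13 genes. Only mir-92a in jigr1 and mir-4972 in for, the gene of a cGMP-dependent protein kinase, were bound solely at a host TSS downstream of the hairpin, which cannot begin a transcript that contains it. For 6 pairs of peak and host, the TSS of another gene was nearer to the summit than the host's, as with rumi for the peak assigned to mir-4953 in Usp12-46 and CG7029.

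**Figure D3:**
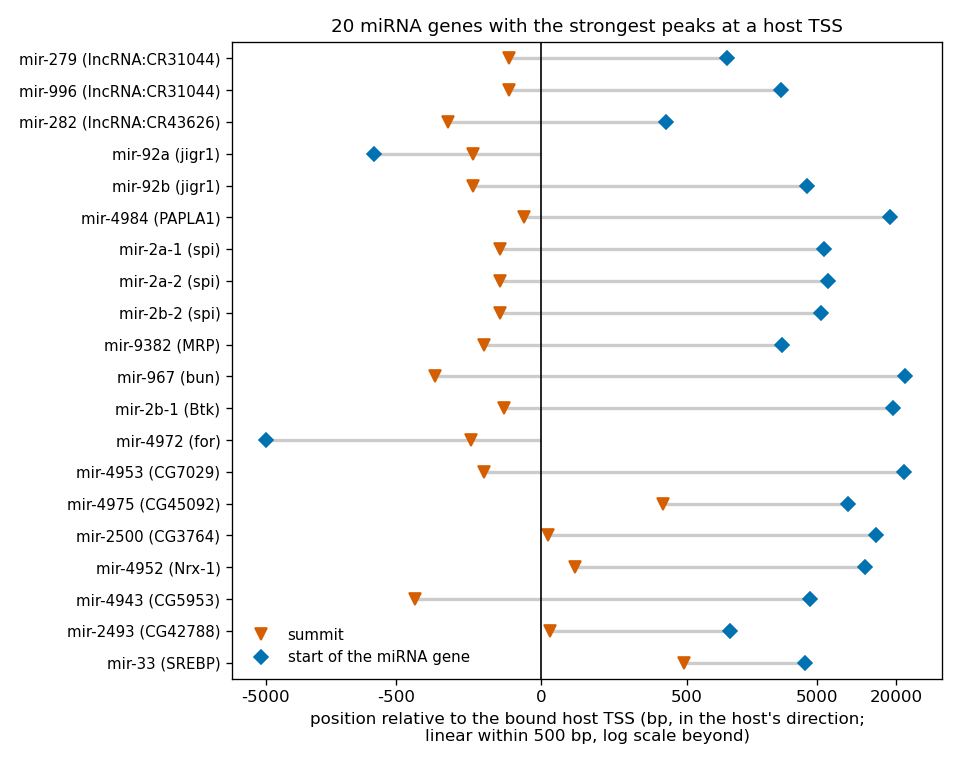
Position of the summit (triangles) and of the miRNA gene start (diamonds) relative to the bound host TSS at 0, in bp along the host's direction, for the 20 miRNA genes with the strongest peaks at a host TSS. The axis is linear within 500 bp and logarithmic beyond; the diamonds of mir-92a and mir-4972 lie before the TSS and the others after it.

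The strongest peak at any host start was at lncRNA:CR31044, the primary transcript of mir-279 and mir-996, which are known for restricting the formation of carbon dioxide sensing neurons. The peak at chr3R:29214287-29214604 had its summit 113 bp upstream of the TSS and 1136 bp upstream of mir-279. Its signal was 869, rank 55 of the reproducible list, and it ranked 96 in replicate 2, 30 in replicate 3 and 64 in replicate 4. All 3 replicates thus placed it among their 100 strongest peaks. A replicate's rank here and below is that of its strongest peak with a summit inside the interval of the reproducible peak, which is narrower than the 500 bp window. Where the window gives another value, that is said.

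A peak of rank 190 (signal 491) lay 320 bp upstream of lncRNA:CR43626, the host of mir-282, and ranked 207, 178 and 265 in replicates 2, 3 and 4. At jigr1, host of mir-92a and mir-92b, miRNAs known for neural stem cell maintenance, the peak ranked 199 (signal 485) and 159, 501 and 155 in the replicates. Its summit was 237 bp upstream of a TSS that precedes mir-92b but follows mir-92a. Both peaks were among the 1000 strongest of every replicate.

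Of the 14 genes with the seed of the mir-2 family, known to repress the cell death genes reaper, grim and sickle, 5 had a bound host, in 3 separate hosts. Mir-2c, mir-13a and mir-13b-1, in lncRNA:CR45911, had none, with a pooled host rank of 15114. At spi, which encodes the epidermal growth factor receptor ligand Spitz and holds mir-2a-1, mir-2a-2 and mir-2b-2, the stronger of 2 summits was 142 bp upstream of the TSS. It ranked 243 (signal 447), with ranks 194, 609 and 213 in replicates 2, 3 and 4. The other, 343 bp upstream, ranked 971 and was weaker in replicate 3 (rank 3539) than in replicates 2 and 4 (979 and 472). Within 500 bp of the TSS the best replicate ranks are those of the stronger summit. At Btk, a Tec family tyrosine kinase gene that holds mir-2b-1, the summit was 130 bp upstream of a TSS, 19010 bp from the miRNA gene, and ranked 305, with 544, 193 and 423 in the replicates. At RpS23, a ribosomal protein gene that holds mir-308, the rank was 1607, close to the median of the list, with 1937, 1049 and 1536.

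Among other hosts of high rank, PAPLA1 (a phospholipase gene, host of mir-4984) had a peak of rank 238 and MRP (an ABC transporter gene, host of mir-9382) one of rank 249. Both were in the top 500 of all 3 replicates. At bun, which encodes a transcriptional regulator of the TSC-22 family and holds mir-967, the peak ranked 285, with 332 and 395 in replicates 2 and 4. Replicate 3 had no summit inside the interval but had one within 500 bp of the same TSS, at rank 292. The interval at for held 2 listed summits, of rank 412 and 576. Next in order were the peaks at Usp12-46 and CG7029 (mir-4953, rank 429), at chk and CG45092 (mir-4975, rank 447) and at CG3764 (mir-2500, rank 566).

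Beyond rank 1000 more peaks differed widely in rank between replicates. Nrx-1, a synaptic adhesion gene that holds mir-4952, ranked 1063, with 1149, 1021 and 1293 in replicates 2, 3 and 4. SREBP, the regulator of lipid synthesis genes, which holds mir-33, ranked 1177, with 1263, 1194 and 1105. The SREBP summit of replicate 2 lay inside the interval, but that replicate had none within 500 bp of the TSS. In contrast, the peak at CG42788 (mir-2493) ranked 1170 but 25432 in replicate 2, against 423 and 1000 in the other two. At CG5953 (mir-4943, rank 1148), replicate 3 had its summit outside the interval but within 500 bp of the same TSS, at rank 1144. The first 30 of the 50 pairs of miRNA gene and bound host ended at rank 2001, with mir-3641 in CG3630. They also held mir-2279 in MFS17 (rank 1423), mir-3644 in Kpc1 (rank 1430), mir-9373 in CG6231 (rank 1889) and mir-4956 in Sxl, the master gene of sex determination (rank 1909). Mir-9370 in Amun ranked 1942, with 1091 and 874 in replicates 2 and 4. Replicate 3 ranked 19999 inside the interval and 3894 within 500 bp of the same TSS.

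The other 16 bound hosts had ranks from 2041 to 3141. Among them were Gmap, a Golgi protein gene that holds mir-12, mir-283 and mir-304 (rank 2642), the heat-inducible lncRNA:Hsromega with mir-4951 (rank 2383), the nuclear receptor gene Hr39 with mir-9374 (rank 2432), and kuz, a Notch-cleaving metalloprotease gene with mir-2489 (rank 2769). The Hr39 peak had a summit inside its interval in replicate 4 alone, at rank 1884, and replicate 3 had one within 500 bp of the TSS, at rank 2137. These examples were chosen after their values were seen.

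Of the 44 summits at host TSSs, 22 were matched by a summit among the 3233 strongest of all 3 replicates, 14 in 2 replicates and 8 in 1. The 2 summits at for share an interval and so the same replicate matches. These shares were not computed over all reproducible peaks, so nothing particular to host peaks is read from them. Within the whole lists, 5 intervals held no summit of replicate 2 and 3 held none of replicate 3, while replicate 4 had a summit in every one. With summits within 500 bp of the same TSS allowed too, 4 were without one in replicate 2 and 0 in replicate 3. The summit was upstream of the TSS for 30 pairs of peak and host and at or downstream of it for 18, at a median distance of 188.5 bp. The median rank of the 44, 1823.5, was a little behind the median rank of all reproducible peaks, 1617.

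**Figure D4:**
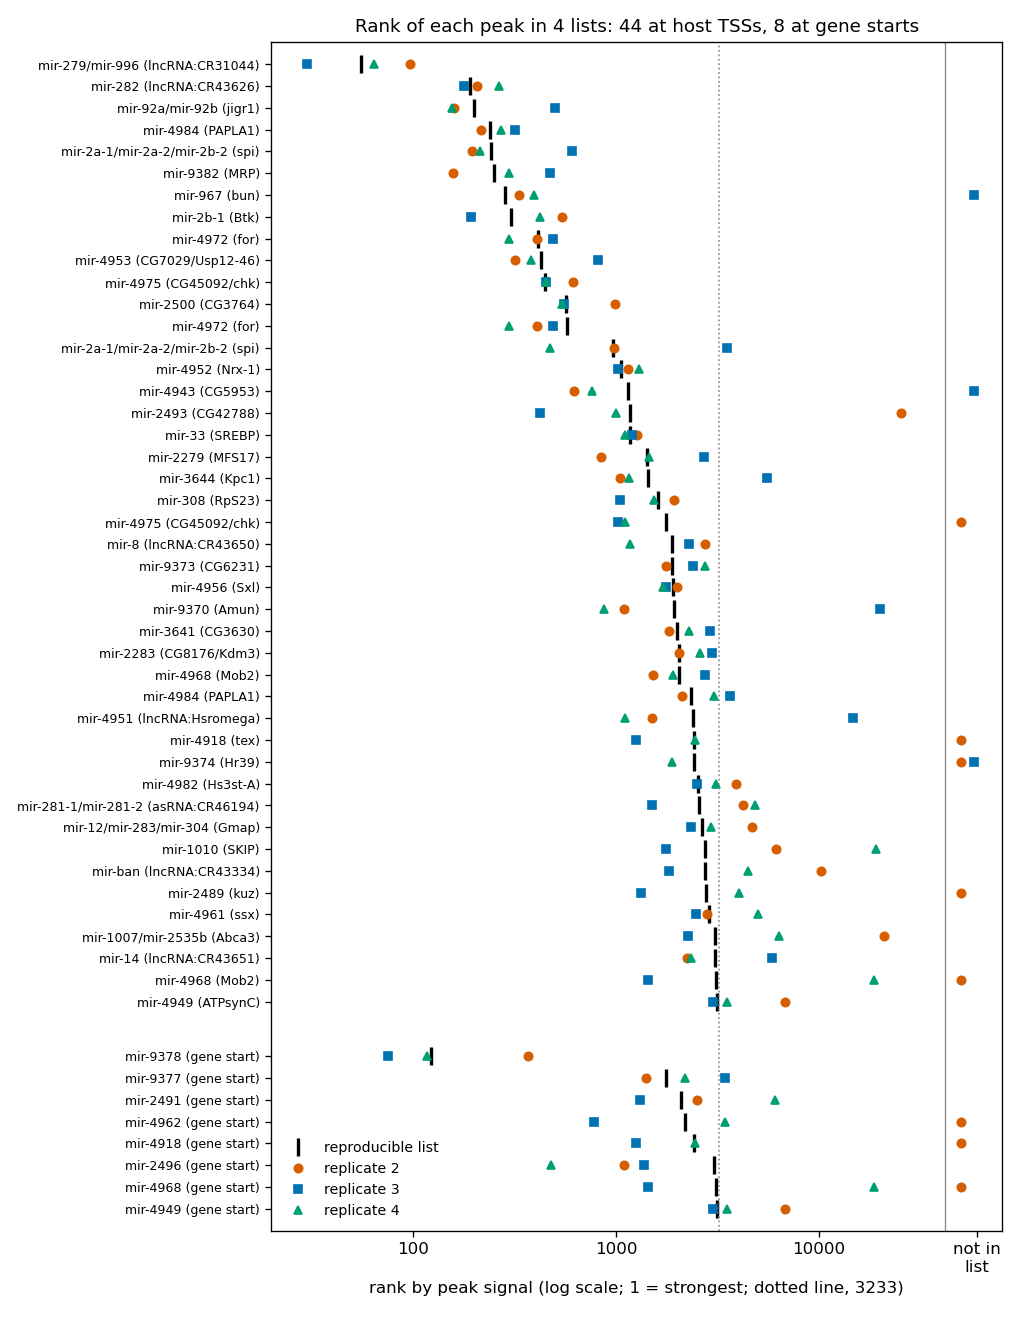
Rank by signal, on a log axis with 1 the strongest, of the 44 summits at host TSSs and the 8 at miRNA gene starts. Bars are the reproducible list, coloured points the 3 replicates, points at the far right have no summit of that replicate inside the peak interval, and the dotted line marks rank 3233; the replicate points lie close together for the highest ranks and spread apart beyond about rank 1000, the peak at bun excepted, where the replicate 3 summit lies outside the interval.

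Peaks at the miRNA gene itself were found at 8 genes, none of them among the well-studied miRNAs. The peak of highest rank was at mir-9378, in an intron of CG17124. Its interval, chr2L:10751962-10752228, had its summit 153 bp upstream of the hairpin start and 4234 bp from the nearest TSS. It ranked 122 (signal 591), with 366, 75 and 117 in replicates 2, 3 and 4, well inside the top 1000 of each. No other gene start peak of these 8 ranked above 1000.

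The others were in hosts, except mir-2496. Mir-9377 in Tis11, an mRNA decay factor gene, ranked 1773, with 1409, 3464 and 2200 in replicates 2, 3 and 4, and its summit was 5145 bp from the nearest TSS. Mir-2491 in fog, a gene for apical constriction in gastrulation, ranked 2085. Mir-4962 in Tlk, a Tousled-like kinase gene, ranked 2178, with 775 and 3429 in replicates 3 and 4 and no summit in replicate 2. Thus 4 of the 8 summits were more than 500 bp from the TSS of any gene other than a miRNA gene.

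The remaining 4 lay near such a TSS. Mir-4918 in tex (rank 2418), mir-4968 in Mob2 (rank 3103) and mir-4949 in ATPsynC, which encodes a subunit of mitochondrial ATP synthase (rank 3141), sat within 500 bp of a host TSS, and the same summit counted for both. Mir-2496, the unhosted gene, ranked 3044 with a summit 413 bp upstream of its start and 70 bp from the TSS of lncRNA:CR45478. Summits inside this interval ranked 1095, 1371 and 477 in replicates 2, 3 and 4. Within 500 bp of the gene start, replicate 2 had none and replicates 3 and 4 had ranks 1371 and 5301. In all, 52 of the 260 miRNA genes (20%) had a reproducible summit at their start or a host TSS, 3 of them at both.

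The window of 500 bp set these counts at its edge. Just inside at a gene start were mir-4968 (422 bp) and mir-9377 (462 bp), and just outside were mir-92a (503 bp) and mir-4975 (616 bp). At host TSSs, mir-3641 in CG3630 (479 bp) and mir-33 in SREBP (491 bp) were inside, and mir-375 in lncRNA:CR45345 (511 bp) and mir-9375 in CG9727 (524 bp) were outside.

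Distances, taken from the hairpin start for miRNA genes and not from a promoter, gave a different picture for the hosted and the unhosted genes. The median distance from the gene start to the nearest reproducible summit was 8980 bp for hosted miRNA genes and 32324 bp for those without a host, beside 11799 bp for all genes. Within 5 kb of a summit were 27.5% of hosted and 11.5% of unhosted starts, beside 30.5% of all. Within 10 kb the hosted genes were above all genes (55.5% and 45.8%) and the unhosted below (38.5%). The hosts' own TSSs had a median of 6982 bp, beside 10237 bp for TSSs of protein-coding genes. Clusters account for a step in the curve of unhosted genes, since 12 genes from mir-972 to mir-979 on the X chromosome form 1 cluster that lies 36170 to 46855 bp from the nearest summit. Counted by cluster, the 50 unhosted clusters had a median of 16532 bp and the 156 hosted ones 9339 bp.

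**Figure D5:**
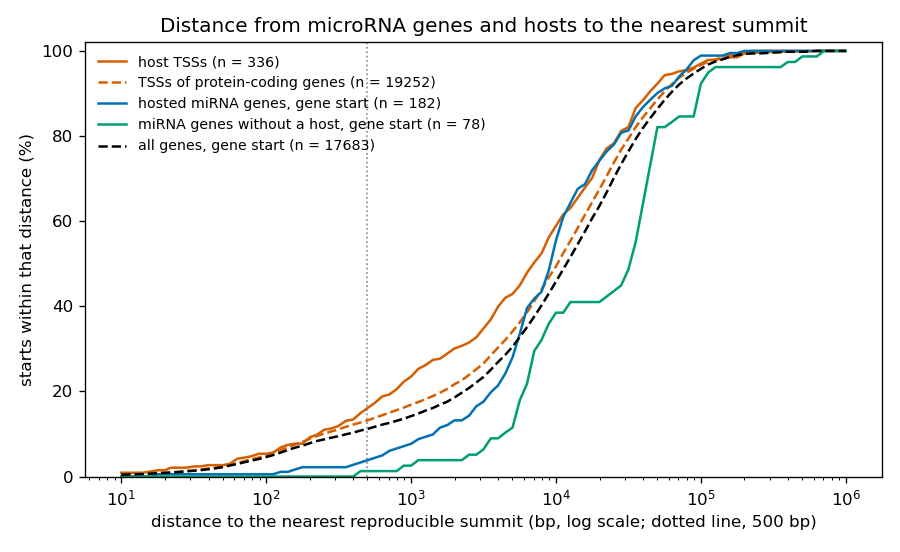
Cumulative share of starts, in percent, by distance to the nearest reproducible summit in bp on a log axis. Lines are hosted and unhosted miRNA gene starts, all gene starts, host TSSs and TSSs of protein-coding genes; the unhosted miRNA genes lie lowest up to about 100 kb and the host TSSs lie highest between 500 bp and 10 kb.

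Peaks near hosted miRNA genes lay mostly on the upstream side. A summit was found in the 5 kb upstream of 20.9% of hosted miRNA genes and in the 5 kb downstream of 9.34%. For unhosted genes the shares were 8.97% and 2.56%, and for all genes 20.5% and 14.0%.

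Bantam, a miRNA that promotes growth and blocks cell death through hid, is made from lncRNA:CR43334, which has 3 annotated TSSs, at 13773, 13738 and 2494 bp upstream of the hairpin. A summit lay within 500 bp of the farther 2 and not of the nearest. It was 3 bp from the TSS at 13738 bp but weak, with rank 2757 and ranks 10288, 1819 and 4453 in replicates 2, 3 and 4. Stronger peaks lay between this TSS and the hairpin. They were 8484 bp (rank 503), 7322 bp (rank 263), 5567 bp (rank 2045) and 1447 bp (rank 662) upstream of the hairpin start, and another lay 2115 bp downstream (rank 234). The peak of rank 263 ranked 228, 313 and 331 in the replicates, and that of rank 234 ranked 460, 192 and 202. Together 7 reproducible summits lay within 20 kb of the bantam gene start, a count reached by 3 of 182 hosted miRNA genes and by 0.752% of all genes; the others were mir-375 with 10 and mir-4943 with 7. This count was looked at after the values had been seen.

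The well-studied miRNA genes were described whatever their values. Of 23 such genes, 5 had a reproducible summit at a host TSS (mir-279, mir-2a-1, mir-8, bantam and mir-14), and none had one at its own start. Over the 22 of them with a host this is 22.7%, close to the 25.8% of all hosted miRNA genes. Mir-8, known for its part in Wnt and insulin signalling, had a summit 110 bp upstream of lncRNA:CR43650 at rank 1883, with 2731, 2296 and 1174 in replicates 2, 3 and 4. Mir-14, known for its part in cell death and fat metabolism, had one 16 bp from the TSS of lncRNA:CR43651 at rank 3088, with 2226, 5885 and 2351. Both were closer in rank between replicates than the bantam TSS peak.

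The other 18 had no reproducible summit at either place. The let-7 complex, which times the change from larva to adult, is made with mir-100 and mir-125 from lncRNA:let7C. Its best summit in the pooled list ranked 19982, and of the replicates replicate 4 alone had one, at rank 8229. The muscle miRNA mir-1 had a host summit at pooled rank 8529, the neural mir-124 at 7570, the germline regulator mir-184 at 5120, and mir-7 in HnRNP-K, known from eye development, at 5380. Nearest to the reproducible list was mir-276a, a miRNA known from memory formation, with a pooled host rank of 3559 and 22360, 3860 and 6628 in replicates 2, 3 and 4.

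At the Hox loci, mir-10 had a pooled host rank of 12929 and mir-iab-8 of 6620. Mir-iab-4 comes from the opposite strand of the mir-iab-8 hairpin and had no host summit in any list, and the start they share had a pooled rank of 13777. The ageing-linked mir-34 and mir-277, in lncRNA:CR43459, had a pooled host rank of 7462. For mir-9a (10711), mir-278 (11246) and mir-263b in meru (26168) the pooled host peaks were weaker than that at lncRNA:CR43459. Mir-309, of the cluster that helps clear maternal messenger RNAs, had no pooled summit at its host or start, and mir-310, without a host, had one at its start at rank 20113. Most of these loci thus had only entries that did not reach the reproducible list.

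Outside the reproducible list, the best pooled summits at a miRNA gene start were at mir-4957 (rank 3258), at mir-303 and mir-982, which share a summit (rank 3641), at mir-4942 (rank 4176) and at mir-1000 (rank 4987). Mir-4957 ranked 21663, 2292 and 4329 in replicates 2, 3 and 4. It missed the list by few ranks, and its replicates were uneven.

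Genes for proteins that make or use miRNAs were set beside protein-coding genes at large. A reproducible summit lay at a TSS of 15 of 40 (37.5%), beside the 14.6% given above, and the strongest peaks of replicates 2, 3 and 4 gave 15, 12 and 11, a mean of 31.7% ± 5.2 (SD, n = 3). Without replicate 2 the count was 7, and without replicate 3 or 4 it was 9, in the shorter lists named above. By number of TSSs, 1 of 15 pathway genes with 1 TSS was bound (6.67%), 10 of 20 with 2 to 3 (50%) and 4 of 5 with 4 or more (80%). The shares of protein-coding genes that host no miRNA were 10.6%, 23.2% and 40.7%. The single-TSS genes were thus not above their like, and the genes with more TSSs were. The classes are small and the reason for the gap was not tested, so nothing particular to the pathway is read from the total. The list was drawn up with earlier results known. The highest ranks were at Hsp83 (rank 257), a chaperone in Argonaute loading, PAN3 (260), a deadenylase partner, and r2d2 (354), the partner of Dicer-2. The silencing effector gw followed at rank 777, with 772, 473 and 1118 in the replicates. Pop2 (1358), a deadenylase of the CCR4-NOT complex, and wech (1494), a TRIM-NHL protein gene, came next. The miRNA Argonaute AGO1 was bound at rank 1898, with 1526, 1996 and 2134 in the replicates.

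The core processing enzymes were not in the reproducible list. Dcr-1 had a pooled rank of 19235, its partner loqs one of 18659, and drosha and pasha had no summit in the pooled list. Drosha had one in replicates 3 and 4, at ranks 7931 and 24161, and pasha in replicate 3 alone, at rank 15948. Ranbp21, the exportin of hairpins, was bound at rank 2012, with 1442, 10189 and 1188 in the replicates. AGO1 and these processing genes were chosen for mention after their values were seen.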

How the data were processed

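The data were peak lists from ChIP-seq with an anti-GFP antibody on 3 biological replicates of whole embryos, per the labels. The authors made 1 list per replicate and 1 from the replicates pooled, and the reproducible list is the pooled list after their irreproducible discovery rate (IDR) step, per the deposited file descriptions. The deposited signal value per peak is the authors' measure of peak strength. Not given in the sources used here were its scale, the aligner, the peak caller and the IDR threshold. Peaks rather than reads were available, so read depth is unknown and no counting interval was derived.

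All work used the dm6 lists and the Ensembl release 115 annotation, with 5896 transposable elements and 485 unnamed entries for mature miRNAs left out. Of 17683 genes on the major arms, 17681 had the same position in the RefSeq Release 6 annotation, from which sequences were read. The dm3 lists were not used here. A start was bound when a summit lay within 500 bp. Replicates were compared by their 3233 strongest peaks, the length of the reproducible list, and by their whole lists. No test was run, because there was 1 group. Genes were named by a rule: all with a summit at their own start, host pairs of highest signal up to 30, 23 well-studied genes whatever their values, the members at the edge of the window, the 5 best pooled starts outside the reproducible list, and pathway genes of highest signal up to 6; others are said to be chosen later. The members and lists were chosen with earlier results of these data known. The counting was tested on simulated peaks. Alternatives were other windows, hosts, lists and clusters, and lists without each replicate. Python 3.11.15, numpy 2.4.6, pandas 2.3.3 and matplotlib 3.10.9 were used.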

Additional observations from a re-analysis of the deposited data

How the results depend on the processing

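The order of the shares held under other windows, and the counts moved with how many peaks were allowed. Unhosted miRNA gene starts had 1 bound gene, but 0 with a 250 bp window, 2 with 1000 bp, 0 with the stronger 1616 reproducible peaks and 18 with the pooled list. Hosted gene starts had 7, but 4 with 250 bp, 14 with 1000 bp, 1 with the stronger peaks and 55 with the pooled list. Hosted genes bound at a host TSS numbered 47 (25.8%), but 23 with the stronger peaks and 139 with the pooled list. They numbered 28 (15.4%) when only the most upstream TSS of each host was used. Distinct bound hosts numbered 42, but 21 with the stronger peaks and 126 with the pooled list. Bound pathway genes numbered 15, but 7 with the stronger peaks and 34 with the pooled list. The stronger list and the most upstream TSS remove peaks or windows by construction.

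Leaving out replicate 2, 3 or 4, by keeping the reproducible peaks matched in the strongest peaks of both others, left 2054, 2119 and 1892 peaks. The unhosted count stayed at 1 in all 3 lists (1.28%) and the hosted start count was 2 in all 3 (1.1%). Hosted starts thus no longer stood above unhosted ones in these lists. Host TSS genes ranged from 26 to 31, distinct hosts from 25 to 30 and pathway genes from 7 to 9. All protein-coding genes then stood at 9.08%, 10.4% and 8.83%. No paired analysis was possible because there was 1 group. The other 34 settings of these counts changed them by no more than 1.5 times.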
